A study of Mus musculus with 7 samples.

Results

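Excitatory neurons of the thalamus were picked out of single-nucleus RNA data from the brains of 5xFAD mice and compared between mice given an AAV vector for ANGPT2 and mice given a control AAV. The nuclei were chosen by their own measured counts. A nucleus was taken as thalamic when it had at least 3 UMIs (counted molecules) of the neuronal genes Rbfox3 and Snap25 together, fewer than 3 UMIs of the GABA synthesis genes Gad1 and Gad2, and UMIs of at least 4 of 8 thalamic markers that together made up at least 10 of every 10000 of its UMIs. The markers were Synpo2, Prkcd, Lef1, Abhd12b, Adamts19, Ntng1, Tcf7l2 and Vipr2. This gave 2094 nuclei of the 58169 that passed the quality filters, from 58286 barcodes in all. The files hold 6311 to 9630 barcodes per library, more than the nuclei that the labels give as loaded, and that difference was not settled, so a nucleus here means a barcode in the files. They were 7.75% of the 27027 excitatory-type neurons, called Gad-low neurons here because they were set apart by their low Gad1 and Gad2 counts.

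All 7 mice carried the 5xFAD transgenes on 1 chromosome copy (5xFAD +/-), so every control has the amyloid model too, and no mouse without the transgenes enters. They were injected behind the eye at 4 months and collected at 6 months, with 3 mice in the control AAV group and 4 in the ANGPT2 AAV group. In batch 1 each group had 1 male and 1 female. In batch 2 the control group had 1 male and the ANGPT2 group 1 mouse of each sex, so the only control female is in batch 1. The tissue is labelled subcortex, thalamus and hippocampus. The labels name no promoter or capsid for the vectors and no cell type that they reach. 5xFAD mice express mutant human transgenes, APP among them, from the neuronal Thy1 promoter.

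Thalamic relay neurons carry sensory and motor signals to the cortex and receive dense return input from it. They use glutamate, which they load into vesicles mainly with VGLUT2, the product of Slc17a6, whereas cortical and hippocampal pyramidal cells rely mainly on VGLUT1, the product of Slc17a7. Their low-threshold calcium channels, led by CaV3.1 (Cacna1g), let them switch between single spikes and bursts. The transcription factors TCF7L2 and LEF1, which act in Wnt signalling, are kept on in the adult thalamus. ANGPT2 (angiopoietin-2) is released by cells and binds TIE2, a receptor of blood vessel lining encoded by Tek, where it commonly acts against ANGPT1.

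The number of thalamic nuclei differed strongly between libraries before any comparison of groups. The control libraries gave 500 (male, batch 1), 323 (female, batch 1) and 129 (male, batch 2). The ANGPT2 libraries gave 516 (male, batch 1), 367 (female, batch 1), 16 (male, batch 2) and 243 (female, batch 2). The ANGPT2 male of batch 2 thus enters with 169772 UMIs from 16 nuclei, against 830455 to 13006522 in the other libraries. Of 41 genes whose log2 change was followed through every alternative, 0 changed sign without this library and 2 moved by over 1.5 times, Angpt2 and Kcnn2, which are given below with and without it. A gene at 0 in that library may still have reached 17.7 CPM (UMIs of a gene per 1000000 UMIs), the level that 3 counts would give. Thalamic nuclei of batch 1 were also read more deeply, with medians of 18696.5 to 25591.5 UMIs per nucleus, against 6397 to 10973 in batch 2. Any 2 libraries shared 63 to 137 barcode sequences, and 1 such sequence was a thalamic nucleus in both libraries of its pair.

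The 8 markers chose the nuclei, so their levels are a description. Ntng1, which encodes the axon-guidance protein netrin-G1, had a UMI in 99.9% of the thalamic nuclei. Synpo2, which encodes an actin-binding protein, had one in 97.7%, Tcf7l2 in 98.3% and Lef1 in 89.4%. Prkcd, which encodes protein kinase C delta, had one in 70.2%, and Adamts19, Vipr2 and Abhd12b in 46.7%, 42.6% and 42.3%. In oligodendrocyte-like nuclei without a UMI of Rbfox3 or Snap25, which should lack most of these genes, the shares ran from 0.319% for Vipr2 to 17.8% for Ntng1. Oligodendrocytes themselves use Tcf7l2, which had a UMI in 14.4% of those nuclei. The median depth was 18732 UMIs in the thalamic nuclei and 1840.5 in the oligodendrocyte-like ones, and detection depends on depth. With every thalamic nucleus thinned to 2000 UMIs, Ntng1 still had a UMI in 96.2% to 100% of each library's nuclei, and Prkcd in 18.8% to 43.6%.

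By level, Synpo2 ran from 1151 to 1487 CPM in the thalamic nuclei of the 7 libraries and from 13.9 to 28.0 CPM in the other Gad-low neurons. Ntng1 ran from 3404 to 4507 CPM against 199 to 328 CPM, and Lef1 from 280 to 727 CPM against 1.09 to 8.50 CPM. Prkcd differed widely between libraries, from 70.7 CPM in the ANGPT2 male of batch 2 to 387 CPM in the ANGPT2 female of the same batch. For each of the 8 markers the groups overlapped. Near the threshold, 18 nuclei had 10 to 12 marker UMIs per 10000 and were kept, and 12 nuclei with 4 or more markers had 8 to 10 and were not. The median thalamic nucleus had 69.5. A further 468 Gad-low neurons passed the level but had only 3 of the markers. Their median depth was 9662 UMIs, against 13939 in the 470 kept nuclei with exactly 4 markers, and their median marker level was 22.2 per 10000 against 49.6.

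**Figure D1:**
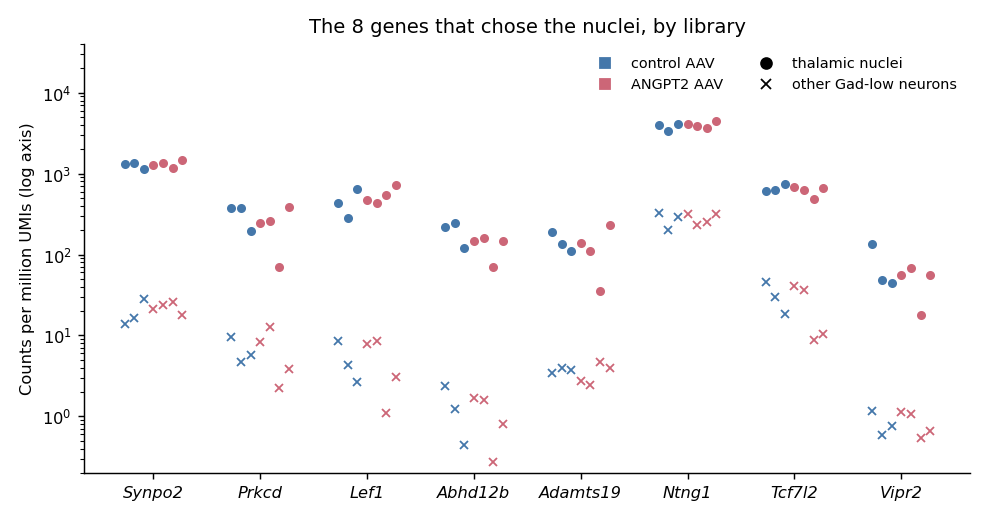
CPM (log axis) of the 8 marker genes in the summed thalamic nuclei (circles) and the summed other Gad-low neurons (crosses) of each of the 7 libraries; blue, control AAV; red, ANGPT2 AAV. The markers chose the nuclei, so the gap between circles and crosses follows from the choice, while the spread among the circles shows that Prkcd varied between libraries from 70.7 to 387 CPM.

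Genes that the choice did not use gave the same picture of the cells, again as a description with no test. Slc17a6 ran from 175 to 324 CPM in the thalamic nuclei and from 12.5 to 32.2 CPM in the other Gad-low neurons. Slc17a7 went the other way, with 38.6 to 56.0 CPM against 100.9 to 226 CPM. Cacna1g averaged 181 CPM against 45.4 CPM and was higher in thalamic nuclei in 7 of 7 libraries, whereas the other low-threshold calcium channel genes, Cacna1h and Cacna1i, were lower in 7 of 7 (means of 3.42 against 29.5 CPM, and 15.6 against 52.4 CPM). The pacemaker channel gene Hcn4 was higher in 7 of 7 libraries (18.9 against 1.52 CPM). The thalamic transcription factor genes Rora, Rorb, Zic1, Zic4 and Prox1 were higher in 7 of 7 libraries, with ratios of mean CPM of 2.39, 3.12, 6.32, 6.34 and 4.73. Gbx2, which works mainly in the developing thalamus, had 0 to 3.06 CPM.

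Ranked by the lowest ratio over the 7 libraries, a rule chosen after the values were seen, the genes outside the markers that stood highest over the other Gad-low neurons were Plekhg1, Amotl1, Mrvi1, Vangl1, Cnksr3, Rnf220 and Vav3. Plekhg1, which encodes an exchange factor for small GTPases, had 903 to 1200 CPM in thalamic nuclei and a mean of 24.6 CPM in the other Gad-low neurons. Oligodendrocyte-like nuclei also had Plekhg1 (580 CPM), and had more Rnf220 than the thalamic nuclei (1801 against 1215 CPM). Vav3, another exchange factor, had 1225 to 2035 CPM against a mean of 121 CPM. Kcnc2, which encodes the fast-spiking potassium channel Kv3.2, had 2733 to 3311 CPM against a mean of 356 CPM, and the transcription factor gene Zfhx3 had 878 to 1171 CPM against 77.1 CPM. Genes below a set mean level in thalamic nuclei were ranked at neither end, so genes nearly absent from them were left out. At the other end of the ranked genes, Phactr1, a regulator of phosphatase and actin, averaged 239 CPM in the thalamic nuclei and 3630 CPM in the other neurons. Gad-positive neurons had still more, at 4365 CPM. Dlgap2, a postsynaptic scaffold gene, averaged 154 against 2018 CPM, and Ryr2, the ryanodine receptor gene of neurons and heart, 124 against 1242 CPM.

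Mouse Angpt2 itself stood higher in these neurons than in the other classes compared, which did not include vessel cells. Thalamic nuclei held 684 of the 1502 Angpt2 UMIs found in all nuclei that passed the filters, or 45.5%, while they held 10.1% of all UMIs. By library their part of the Angpt2 UMIs ran from 39.7% to 63.7% in batch 1. In batch 2 it was 14.3% (control male), 0% (ANGPT2 male) and 31.9% (ANGPT2 female), where they held 3.03%, 0.667% and 6.54% of all UMIs. Of the 684 UMIs, 623 came from thalamic nuclei that were not called doublets. Pooled over libraries, Angpt2 stood at 17.2 CPM in thalamic nuclei, 2.21 CPM in the other Gad-low neurons, 1.85 CPM in Gad-positive neurons and 0.833 CPM in oligodendrocyte-like nuclei. A UMI of Angpt2 was seen in 18.1% of the thalamic nuclei, in 2.04% of the other Gad-low neurons (median depth 8085 UMIs) and in 0.147% of the oligodendrocyte-like nuclei. In 6 of the 7 libraries the thalamic level lay between 13.6 and 19.5 CPM, while the other Gad-low neurons lay between 1.73 and 3.44 CPM in all 7. The ANGPT2 male of batch 2 had 0 UMIs, where the mean level of the other libraries would give 2.95. Angpt2 lies on chromosome 8 at 18690263 to 18741562 on the minus strand (mm10, GENCODE M21). This members-against-others contrast follows the choice of the nuclei, so it carries no test.

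**Figure D2:**
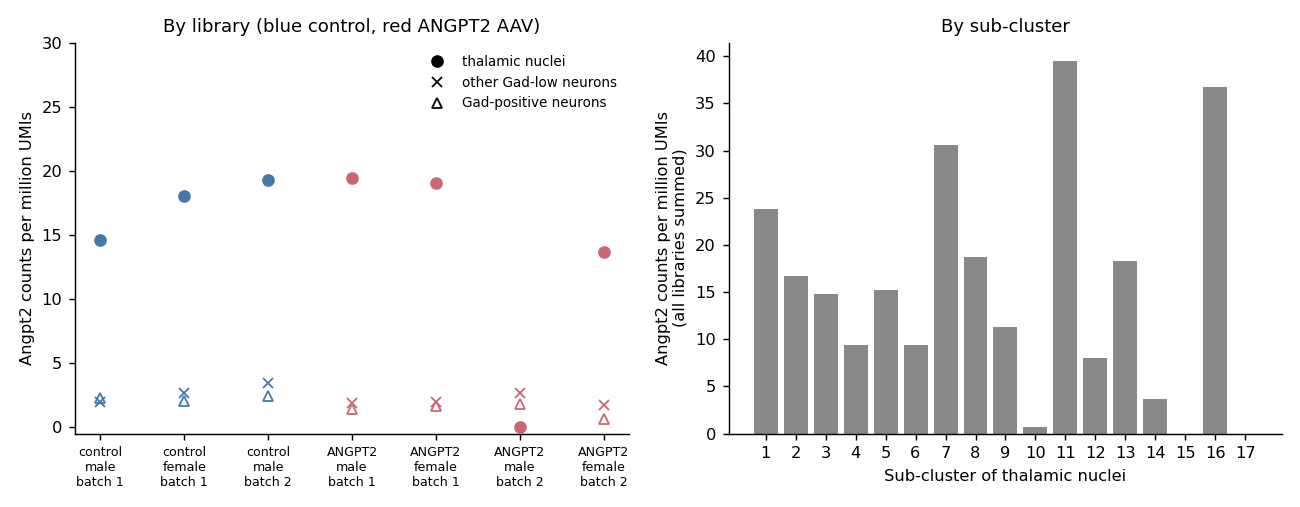
Left, Angpt2 CPM in each library for thalamic nuclei (circles), other Gad-low neurons (crosses) and Gad-positive neurons (triangles); right, Angpt2 CPM in the 17 sub-clusters of the thalamic nuclei, all libraries summed. In 6 of 7 libraries the thalamic value lies between 13.6 and 19.5 CPM, and sub-clusters 7, 11 and 16 stand highest while sub-clusters 15 and 17 are at 0.

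Mouse Angpt2 did not differ between the groups beyond the spread of the libraries. After scaling by TMM factors, Angpt2 stood at 14.1, 18.5 and 18.7 CPM in the control libraries (male and female of batch 1, male of batch 2). It stood at 19.4, 18.1, 0 and 15.7 CPM in the ANGPT2 libraries (male and female of batch 1, male and female of batch 2). The groups overlapped, and the log2 change was 0.08 (SE 0.24, adjusted p = 1), and 0.14 without the ANGPT2 male of batch 2. These counts are of the mouse gene, and whether the vector carried a sequence that the reference could catch is not given in the sources used here. Angpt1 had 69.9, 53.9 and 18.7 CPM in controls and 30.5, 36.5, 5.74 and 42.3 CPM in ANGPT2 libraries, with a fitted log2 difference of -0.62 (SE 0.37, adjusted p = 1). Pooled, Angpt1 stood at 49.3 CPM in thalamic and 16.0 CPM in other Gad-low neurons, but in the control male and the ANGPT2 male of batch 2 the thalamic level was the lower one (19.3 against 19.9 CPM, and 5.89 against 17.03 CPM). Tek was at 1.83 CPM in thalamic nuclei and 2.08 CPM in the other Gad-low neurons, and Tie1 was not expressed highly enough to be tested.

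Thalamic nuclei took a similar range of shares in both groups. Of the Gad-low neurons they made up 11.0%, 7.76% and 3.40% in controls (male and female of batch 1, male of batch 2), with a mean of 7.39% ± 3.82 (SD, n = 3). In the ANGPT2 libraries they made up 13.4%, 8.09%, 0.698% and 6.31% (male and female of batch 1, male and female of batch 2), with a mean of 7.12% ± 5.23 (SD, n = 4). The difference was -0.27 percentage points, and the 2-sided exact permutation test, over 35 arrangements, gave p = 0.914. The smallest p this design can give is 0.0286. Within batches the difference was 1.35 percentage points in batch 1 and 0.0996 in batch 2, and without the ANGPT2 male of batch 2 it was 1.87. Of all nuclei that passed, thalamic nuclei made up 3.69% ± 2.14 (SD, n = 3) in controls and 3.44% ± 2.69 (SD, n = 4) in ANGPT2 libraries, with an exact permutation p of 0.886. With nuclei thinned to 2000 UMIs the shares were 4.76%, 3.54% and 1.98% in controls and 4.80%, 3.86%, 0.139% and 3.42% in ANGPT2 libraries, in the same orders of libraries. Libraries of the same group thus differed more than the group means. The library with the fewest, the ANGPT2 male of batch 2, has an exact 95% binomial interval of 0.400% to 1.13%, which covers counting error only and lies below the interval of every other library. Which part of the labelled tissue each section held was not measured, and its part in these shares was not tested.

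**Figure D3:**
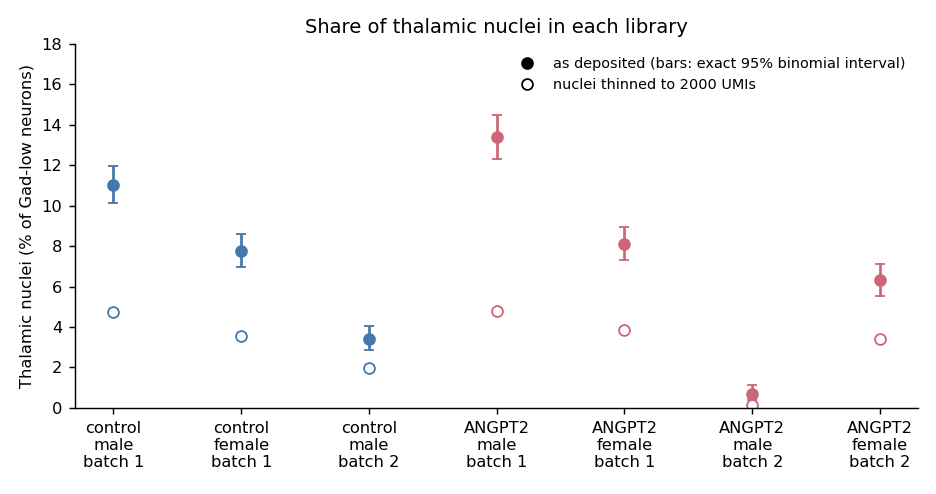
Thalamic nuclei as a percentage of Gad-low neurons in each library, as deposited (filled, with exact 95% binomial intervals) and after nuclei were thinned to 2000 UMIs and shallower ones left out (open); blue, control AAV; red, ANGPT2 AAV. The control libraries span 3.40% to 11.0% and the ANGPT2 libraries 0.698% to 13.4%, so the groups overlap.

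The thalamic nuclei were not uniform. Clustering them on their own gave 17 sub-clusters, numbered by size from 344 to 15 nuclei, and their leading genes below describe the clusters and are not tested. Sub-cluster 1 was led by Tspear, Tll1 and Necab1, a calcium-binding protein gene (602 CPM against 216 CPM in the other thalamic nuclei). Sub-cluster 2 (251 nuclei) had Ror1, a Wnt receptor gene, at 367 against 19.5 CPM and Pcsk5 at 441 against 40.5 CPM, with Prkcd at 19.2 CPM and Calb2, the calretinin gene, at 70.0 CPM. Sub-cluster 8 (118 nuclei) had Prkcd at 720 CPM, Adamts19 at 524 CPM and Tnnt1 at 48.2 CPM. Sub-cluster 4 (174 nuclei) had Vipr2, the receptor gene for VIP and PACAP, at 211 CPM and Adamts19 at 374 CPM. Drd3, the dopamine D3 receptor gene, stood at 36.2 CPM in sub-cluster 5, 49.3 CPM in sub-cluster 11 and 26.9 CPM in sub-cluster 2. Sub-cluster 2 held 37.3% of the thalamic Drd3 UMIs. Sub-cluster 5 also had Pth2r and the opioid receptor gene Oprm1 (425 against 117 CPM). Sub-cluster 10 (103 nuclei) was led by Npsr1, the neuropeptide S receptor gene, at 644 against 19.6 CPM.

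Angpt2 varied across the same sub-clusters. It stood at 39.5 CPM in sub-cluster 11, 36.7 CPM in sub-cluster 16 and 30.6 CPM in sub-cluster 7. It stood at 0.718 CPM in sub-cluster 10, from a single UMI, and at 0 UMIs in sub-clusters 15 and 17. Sub-cluster 1 held 24.7% of the thalamic Angpt2 UMIs. Of the 16 thalamic nuclei of the ANGPT2 male of batch 2, 7 lay in sub-cluster 10, where Angpt2 was near 0. A further 3 lay in sub-cluster 16, among the highest for Angpt2, and 3 in sub-cluster 9, where it stood at 11.3 CPM. The part of this makeup in that library's 0 UMIs was not tested.

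A few sub-clusters held features of other cells. Sub-cluster 17 (15 nuclei) was habenula-like: 10 of 11 habenula markers were detected, with Nwd2 at 9434 CPM, Chat at 250 CPM and Tac2 at 145 CPM, and Synpo2 was at 58.1 CPM there. The habenula borders the thalamus and also keeps Tcf7l2 on. Of sub-cluster 6 (129 nuclei), 83.7% was called doublet. Sub-cluster 13 (69 nuclei) carried oligodendrocyte genes, with St18 at 580 CPM, and 92.8% of it was called doublet. Sub-cluster 12 (75 nuclei) had a median of 4428 UMIs and carried Ttr, the choroid plexus gene, at 958 CPM, and 47 of its nuclei came from the ANGPT2 female of batch 1. Sub-cluster 15 (56 nuclei) was led by Erbb4, Ebf3 and Reln, had Synpo2 at 87.5 CPM, and came mostly (47 nuclei) from the control male of batch 1. These 5 sub-clusters held 344 of the 2094 nuclei, and the gene comparisons were repeated without them.

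Libraries of the same group differed widely in makeup. Sub-cluster 3, led by Adgrf5 and Tnc, took 22.8% of the thalamic nuclei of the control male of batch 1, 6.19% of those of the control female of batch 1 and 0% of those of the control male of batch 2. Sub-cluster 4 took 46.1% in the ANGPT2 female of batch 2 and 0% to 2.45% in the other 3 ANGPT2 libraries. For 17 of 17 sub-clusters the ranges of the groups overlapped. Thalamic nuclei summed per library are therefore mixtures of different proportions, and the part of the mixture in the differences below was not tested gene by gene.

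**Figure D4:**
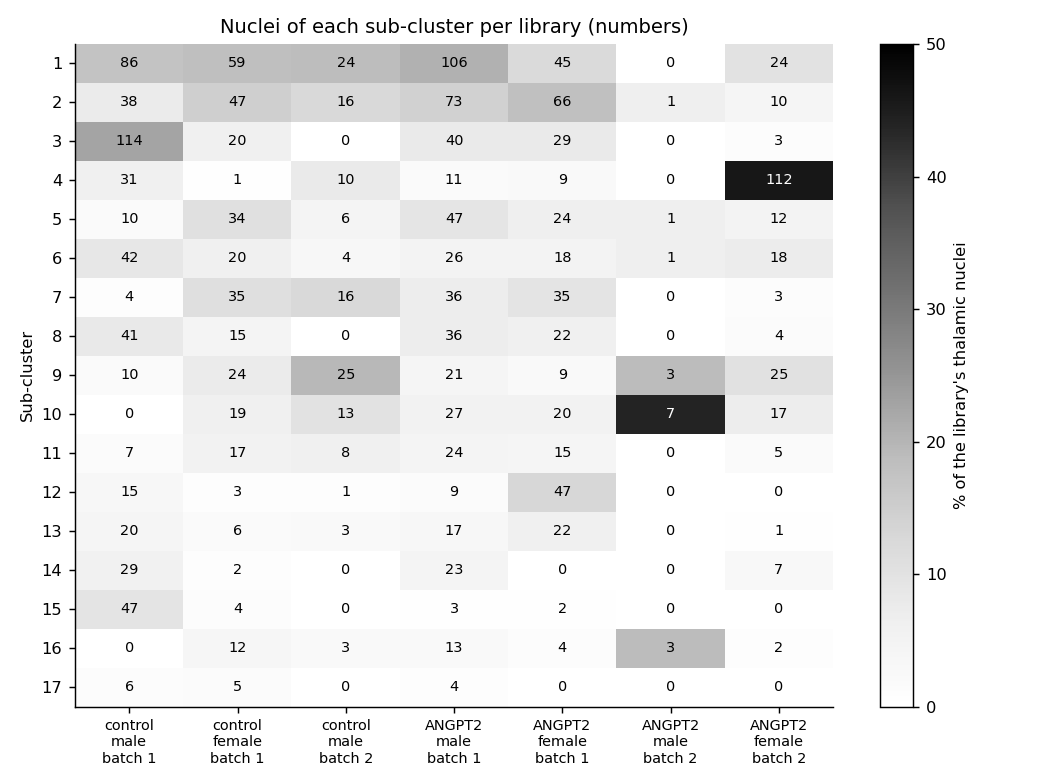
Number of thalamic nuclei in each of the 17 sub-clusters (rows) and 7 libraries (columns), shaded by the percentage of the library's thalamic nuclei. Sub-cluster 4 takes 46.1% of the ANGPT2 female of batch 2, sub-cluster 15 comes mostly from the batch 1 control male, and the ANGPT2 male of batch 2 has 16 nuclei in all.

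No gene passed the threshold of an adjusted p of 0.05 when UMIs summed over the thalamic nuclei of each library were compared between groups with edgeR's quasi-likelihood test. Of 13345 genes tested 0 passed (0% called), and 0 passed with DESeq2. At an unadjusted p under 0.05 stood 246 genes (1.84%) with edgeR, of which 78 had higher and 168 lower values with ANGPT2 AAV, and 39 genes with DESeq2. The median log2 change over all tested genes was -0.003. Genes named below are those with the smallest p in each direction, or listed members, and none of their differences passed.

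Among genes with higher values in ANGPT2 libraries, Arhgap29, which encodes a GTPase-activating protein, came first. It stood at 8.59, 7.33 and 14.1 CPM in controls (male and female of batch 1, male of batch 2) and at 16.9, 15.7, 11.5 and 30.9 CPM in ANGPT2 libraries (male and female of batch 1, male and female of batch 2). The ANGPT2 male of batch 2 fell inside the control range, and the ANGPT2 female of that batch was highest. Sub-cluster 4, which took 46.1% of that female's thalamic nuclei, had Arhgap29 at 23.1 CPM against 12.5 CPM in the other thalamic nuclei. Sub-cluster 16, which took 18.8% of that male's, had 43.4 CPM against 12.6 CPM. The part of makeup in the Arhgap29 difference was not tested. The log2 change was 1.15 (SE 0.28) with an unadjusted p of 0.000916 and an adjusted p of 1. The log2 difference was 1.03 within batch 1 and 0.42 within batch 2. Nfe2l3, a gene for a transcription factor of the NRF family, stood at 12.1, 6.38 and 14.1 CPM in controls and 14.6, 17.8, 34.4 and 19.0 CPM in ANGPT2 libraries. All ANGPT2 values lay above all controls, by a small margin, and the log2 change was 0.78 (SE 0.27). The same held for Gm10373 (0.74, SE 0.22), 2310022B05Rik (0.91, SE 0.29) and Rtl6 (1.25, SE 0.43). The lowest ANGPT2 library for Gm10373 and 2310022B05Rik was the male of batch 2, at 11.5 and 5.74 CPM, where 1 UMI gave 5.74 CPM. The highest controls were at 10.5 and 4.69 CPM, so both separations rest on a few UMIs there. For 164 of the 13345 tested genes (1.23%) all ANGPT2 libraries lay above all controls. The others of the first 10 were Apool, a gene for a mitochondrial inner membrane protein (0.74), the collagen gene Col24a1 (1.83), Kbtbd12 (1.31), the lysyl oxidase gene Loxl2 (1.63) and Tcf7l1, a relative of Tcf7l2 (1.95). Col24a1 was a leading gene of sub-cluster 11 and was at 0 in the ANGPT2 male of batch 2. It was highest, at 30.9 CPM, in the ANGPT2 female of batch 2, which had 2.06% of its thalamic nuclei in sub-cluster 11. That female had 46.1% of them in sub-cluster 4, where Col24a1 stood at 15.8 CPM against 9.15 CPM in the other thalamic nuclei. Tcf7l1 had a mean under 3 CPM in both groups.

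On the other side, Syt6, a synaptotagmin gene, stood at 7.25, 5.90 and 4.69 CPM in controls and at 2.95, 2.30, 0 and 1.63 CPM in ANGPT2 libraries. All ANGPT2 values lay below all controls, and the log2 change was -1.38 (SE 0.33) at an unadjusted p of 0.00074 and an adjusted p of 1. Syt6 was also a leading gene of the habenula-like sub-cluster 17 (470 CPM), which held 11 control nuclei and 4 ANGPT2 nuclei. Without sub-clusters 6, 12, 13, 15 and 17, too few Syt6 UMIs were left to test, and with at least 5 markers required of a nucleus the log2 change was -0.46 (unadjusted p = 0.305). All ANGPT2 libraries lay below all controls for 308 tested genes (2.31%).

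Pde1a, a calmodulin-dependent phosphodiesterase gene, stood at 76.6, 87.2 and 66.8 CPM in controls and at 51.2, 49.9, 11.5 and 55.9 CPM in ANGPT2 libraries, with no overlap. Its log2 change was -0.66 (SE 0.19), and -0.64 without the 5 sub-clusters, although Pde1a was high in sub-clusters 6, 15 and 17 (326, 365 and 1353 CPM). Htr4, a serotonin receptor gene, behaved differently. It stood at 27.4, 17.4 and 5.86 CPM in controls and 10.2, 6.26, 11.5 and 8.68 CPM in ANGPT2 libraries. The groups overlapped, and the log2 change went from -1.24 to -0.45 when the 5 sub-clusters were left out. Gm2164 went from -1.32 to -0.12 in the same way. Others of the first 10 were Apbb1ip (-1.39), the Wnt deacylase gene Notum (-1.33), Gm12216 (-1.37), Gm6999 (-2.38) and Rerg (-1.30). Apbb1ip, an adaptor gene of integrin signalling in blood cells, was -1.84 without the 5 sub-clusters.

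Gene lists were read by their counts and medians, against 49.3% higher and 50.7% lower over all tested genes. Thalamic identity genes were close to 0 in log2 change. Of 12 identity factors 10 were higher and 2 lower, with a median log2 change of 0.10, and 0 passed. Rorb, for example, had a mean of 523 CPM in controls and 609 CPM in ANGPT2 libraries. Relay, axis and matrix markers were 9 higher and 6 lower of 15 tested, with a median of 0.04. The first list holds Lef1 (log2 change 0.36) and Tcf7l2 (-0.03), and the second Ntng1 (0.15) and Prkcd (-0.23). These genes helped choose the nuclei, so their levels follow partly from the choice. Markers that chose the nuclei also sit in the modulator receptor, synapse organiser and Wnt lists below.

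Channels of firing showed no shift as a list. Of 37 burst and pacemaker channel genes, 18 were higher and 19 lower, with a median of -0.004, and 0 passed. Cacna1e, the R-type calcium channel gene, stood at 204, 242 and 170 CPM in controls and 196, 141, 63.1 and 141 CPM in ANGPT2 libraries, with overlapping groups (log2 change -0.49, SE 0.23, unadjusted p = 0.0504). Kcnn2, the SK2 potassium channel gene, stood at 346, 394 and 376 CPM against 396, 473, 814 and 416 CPM. All ANGPT2 values lay above all controls by as little as 2 CPM, and the log2 change was 0.44 (SE 0.22). Without the ANGPT2 male of batch 2 it was 0.20. That male had 10 of its 16 nuclei in sub-clusters 10 and 16, where Kcnn2 stood at 940 and 971 CPM. Kcna2 had a log2 change of 0.38 (SE 0.20). Cacna1g had a mean of 192 CPM in controls and 174 CPM in ANGPT2 libraries.

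Receptors for glutamate and GABA were also spread around 0. Of 17 ionotropic glutamate receptor genes 11 were higher, with a median of 0.09, and of 7 metabotropic ones 5 were higher, with a median of 0.05. The AMPA receptor gene Gria1 stood at 592, 738 and 549 CPM in controls and at 586, 476, 235 and 428 CPM in ANGPT2 libraries. The ANGPT2 male of batch 1 lay inside the control range, and the log2 change was -0.49 (SE 0.23, unadjusted p = 0.0464). Of 14 GABA receptor genes 4 were higher and 10 lower, with a median of -0.10. For Gabra2 the log2 change was -0.35 (SE 0.16, unadjusted p 0.0469). Of 18 modulator receptor genes 7 were higher. The orexin receptor gene Hcrtr2 stood at 7.40, 9.09 and 5.86 CPM in controls and 5.90, 3.83, 0 and 1.08 CPM in ANGPT2 libraries (log2 change -0.91, SE 0.36). Synapse organisers were 16 higher and 16 lower of 32, and presynaptic release genes 17 higher and 12 lower of 29, among them the vesicle protein gene Sv2c at -0.80 (SE 0.33).

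Activity-regulated genes, which neurons switch on within minutes to hours of strong firing, had lower values in ANGPT2 libraries in 23 of 24 tested, with a median log2 change of -0.35, and 0 passed. Their summed level was 305, 617 and 400 CPM in controls (male and female of batch 1, male of batch 2) and 350, 402, 336 and 331 CPM in ANGPT2 libraries. The control female of batch 1 stood apart, and the other libraries of both groups ran from 305 to 402 CPM. Without that female, 7 of 23 tested were lower and the median was 0.07. Without the batch 1 control male, the lowest library, the median was -0.79, with 10 genes at an unadjusted p under 0.05. Within batch 2, which does not hold that female, the median difference was -0.91, with the 16-nucleus library on the ANGPT2 side. Genes with 0 UMIs in that library enter at a floor, such as Junb and Npas4, both at -3.95 within batch 2. The summed level in batch 2 was 400 CPM in the control against 336 and 331 CPM, so the median overstates the difference in level. Junb, an early-response transcription factor gene, stood at 3.63, 13.5 and 5.86 CPM in controls and 3.56, 3.45, 0 and 1.63 CPM in ANGPT2 libraries (log2 change -1.30, SE 0.48, unadjusted p = 0.0174), and its change was -0.33 without that female. Leaving that female out also moved B2m from -0.85 to -0.30, Sv2c from -0.80 to -0.25, Sorl1 from -0.36 to -0.15 and Notum from -1.33 to -0.66. Npas4, the activity-dependent factor gene, had 19.1 CPM in that female and 0 to 3.51 CPM elsewhere. In the other Gad-low neurons of the same libraries the summed level was also highest in the control female of batch 1 (2374 CPM, against 686 to 1193 CPM elsewhere), and there 26 of 27 listed genes had lower values in ANGPT2 libraries, with a median of -0.89, against 54.4% lower and 45.6% higher over all genes tested in those neurons. This library is the only control female, so sex, mouse and library cannot be told apart.

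Mitochondrially encoded genes were higher in 13 of 13 tested, with a median of 0.35, and 0 passed. Their summed level was 375, 681 and 971 CPM in controls and 655, 1181, 548 and 538 CPM in ANGPT2 libraries, so the groups overlapped. In batch 1 the median difference was 0.74, and in batch 2, with its 16-nucleus library, it was -0.88. Without the ANGPT2 female of batch 1 the median was 0.01, and it was -0.05 without the batch 1 control male. mt-Atp8 had the smallest p of the list (log2 change 0.79, SE 0.28, unadjusted p = 0.0167). The ANGPT2 female of batch 1 was also the library with most oligodendrocyte marker UMIs in its thalamic nuclei (433 CPM, against 112 to 364 CPM elsewhere) and most choroid plexus and ependymal marker UMIs (270 CPM, against 39.5 to 99.8 CPM). The part of free RNA in this was not tested. Nuclear-encoded respiratory chain genes were 31 higher and 39 lower of 70, and cytosolic ribosomal protein genes 41 higher and 38 lower of 79.

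Stress and antigen presentation genes had mostly lower values with ANGPT2 AAV, and 0 passed. Of 22 ER stress and heat shock genes 17 were lower, with a median of -0.14, and Xbp1, a gene of the unfolded protein response, came to a log2 change of -0.59 (SE 0.25, unadjusted p = 0.0335). It stood at 16.7, 17.5 and 9.37 CPM in controls and 10.3, 13.5, 5.74 and 5.97 CPM in ANGPT2 libraries, with overlap. Of 7 tested MHC class I presentation genes 6 were lower, with a median of -0.35. This list and the ER stress list share Calr and Pdia3, so they are not separate observations, and the median is the value of Pdia3. H2-D1 stood at 6.51, 9.56 and 7.03 CPM in controls and 4.58, 4.60, 11.5 and 3.25 CPM in ANGPT2 libraries (log2 change -0.78, SE 0.30), and B2m, the light chain gene, had a log2 change of -0.85 (SE 0.39). The ANGPT2 male of batch 2 was the highest library for H2-D1, from 2 UMIs. Markers of microglia, which carry more of both genes, had the same sign: 8 of 8 were lower, with a median of -0.42. The summed level of those markers was 68.5 to 83.5 CPM in controls and 40.9 to 59.3 CPM in ANGPT2 libraries, without overlap. This separation was seen among the sums of 35 lists and was not tested. In the other Gad-low neurons the same sum overlapped, at 68.6 to 120 CPM in controls and 48.5 to 114 CPM in ANGPT2 libraries. Inpp5d (-0.80) and C1qb (-0.97) were among the microglia markers with the smallest p. The part of microglial RNA in the lower H2-D1 and B2m values was not tested. Of 8 tested interferon response genes 4 were higher and 4 lower.

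Genes of the disease model and of the vector's pathway gave no gene that passed. Of 20 amyloid precursor processing genes 10 were higher and 10 lower. Mouse App had a mean of 822 CPM ± 107 (SD, n = 3) in controls and 754 CPM ± 42.6 (SD, n = 4) in ANGPT2 libraries. Sorl1, the gene of a sorting receptor for the amyloid precursor, stood at 61.9, 88.1 and 63.3 CPM against 59.8, 61.1, 51.6 and 46.6 CPM, with no overlap but a gap of under 1 CPM (log2 change -0.36, SE 0.17). Of 11 tested angiopoietin, Tie and VEGF genes 5 were higher and 6 lower. Flt1, the VEGF receptor gene of blood vessel lining, had the smallest p of them, with a log2 change of 1.20 (SE 0.45, unadjusted p 0.0164) at means of 1.11 CPM in controls and 1.90 CPM in ANGPT2 libraries. It was also an endothelial marker of the lists, and its log2 change in the other Gad-low neurons was 1.07. Wnt and TCF/LEF pathway genes were 17 higher and 7 lower of 24, with a median of 0.07. Cholesterol synthesis genes were 13 higher and 7 lower of 20. Of 18 circadian clock genes 9 were higher and 9 lower, and Per3 had a log2 change of -0.45 (SE 0.18). Glucocorticoid targets were 4 higher of 10, and injury and regeneration genes 4 higher of 12.

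**Figure D5:**
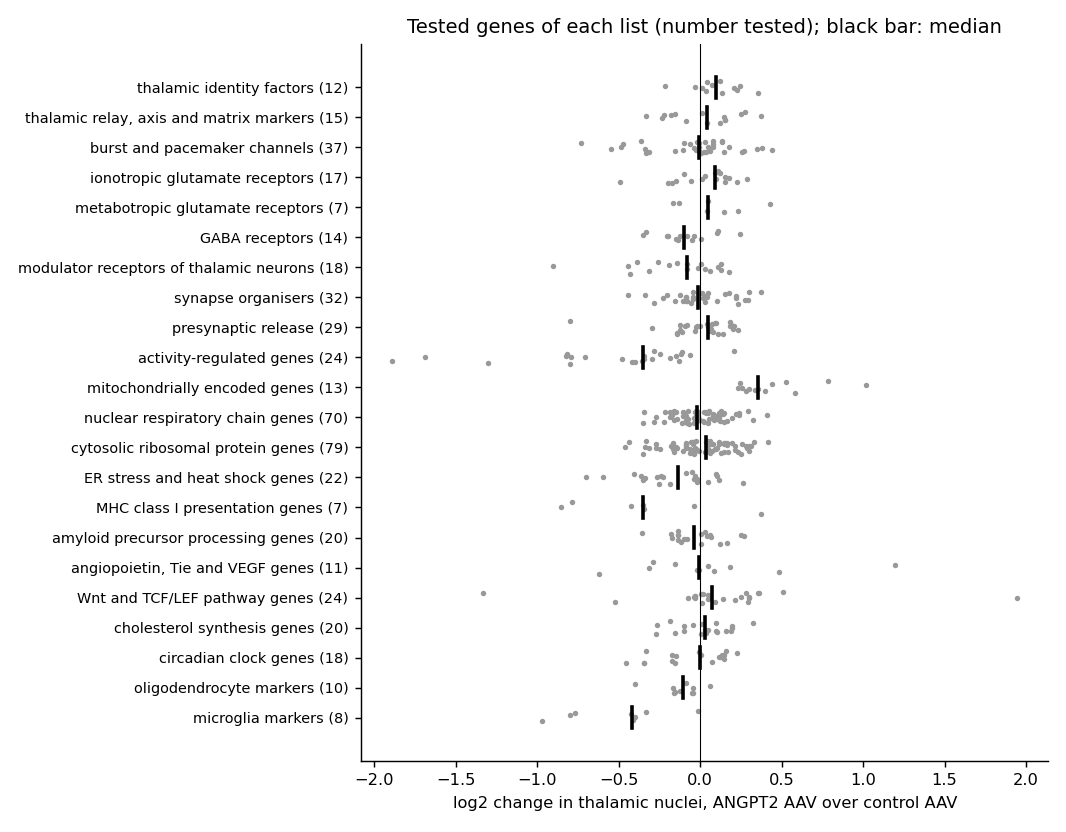
log2 change (ANGPT2 AAV over control AAV) of each tested gene of 22 lists in thalamic nuclei (grey points) with the list's median (black bar); the number tested is in brackets. Activity-regulated genes have a median of -0.35 and mitochondrially encoded genes one of 0.35. The medians of MHC class I genes (-0.35) and microglia markers (-0.42) are also low, and the others drawn lie within 0.2 of 0. The 22 were picked from 35 lists. Medians farther from 0 among lists not drawn were those of endothelial and mural (0.74), habenula (-0.59), striatal (0.49) and GABAergic markers (0.30). Glucocorticoid targets (-0.24) and injury and regeneration genes (-0.20) were not drawn either.

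Markers of other cells were present at low levels in the summed thalamic nuclei. GABAergic markers summed to 35.3 to 58.9 CPM and endothelial and mural markers to 5.17 to 15.0 CPM. Oligodendrocyte markers summed to 263 to 364 CPM in controls and 112 to 433 CPM in ANGPT2 libraries. Of the 10 oligodendrocyte markers 9 were lower in ANGPT2 libraries, with a median of -0.11. Astrocyte markers summed to 687 to 980 CPM and 747 to 1184 CPM. Habenula markers summed to 26.5 to 140 CPM in controls and 29.5 to 111 CPM in ANGPT2 libraries, and the 3 libraries with nuclei in sub-cluster 17 were the highest 3.

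Whether thalamic neurons responded differently from the other Gad-low neurons was tested by the difference of their changes, with the library as a block. Of 16578 genes tested, 0 passed (0% called), and 490 (2.96%) had an unadjusted p under 0.05. The smallest p belonged to Glra3, a glycine receptor gene. It stood at 33.5, 13.2 and 21.7 CPM in thalamic nuclei of controls and 12.6, 6.58, 0 and 10.3 CPM in those of ANGPT2 libraries, without scaling factors. In the other neurons it stood at 23.3, 12.5 and 20.3 CPM and at 21.4, 16.9, 16.8 and 32.5 CPM. The difference of log2 changes was -1.50 (SE 0.26, unadjusted p = 5.53e-05, adjusted p = 0.917). Glra3 was high in sub-clusters 14 and 15 (124 and 201 CPM), which were unevenly spread over the libraries. Frem1 (-2.66), Tfap2d (-3.07), Hmcn1 (-2.36) and Gm46102 (-0.66) followed on that side. In thalamic nuclei Frem1, Tfap2d and Hmcn1 were too low to be tested alone. Tfap2d was a leading gene of sub-cluster 15 (86.3 CPM), and its difference was -0.38 without sub-clusters 6, 12, 13, 15 and 17. Without them 0 of 16249 genes passed, and Glra3 stood at -1.33. Arhgef26 (1.18), Gucy2c (2.35), the receptor tyrosine kinase gene Ret (1.61), Pim1 (2.65) and Glra1, another glycine receptor gene (2.07), led on the other, all with an adjusted p of 1. Without the control male of batch 1, 1 gene passed, Tiparp (1.73, adjusted p = 0.0406), and without the control male of batch 2, 1 gene passed, Peli2 (-1.24, adjusted p = 0.0304); each had an adjusted p of 1 with all libraries.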

How the data were processed

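Cell Ranger 6.1.2 and the build mm10 (GRCm38) are named for these libraries in the submitters' processing notes. The authors deposited raw UMI counts per gene (32285 genes) and barcode, without normalization. The members and gene lists were chosen with earlier results of these data known.

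Barcodes with at least 300 genes and under 5% mitochondrial UMIs were kept (1 removed for few genes, 116 for mitochondrial UMIs). Doublets were called per library from simulated doublets and kept; 237 of the 2094 members were called (11.3%, against 6.77% of all passing nuclei). UMIs were summed per library over members (169772 to 13006522 UMIs, which sets the precision) and compared with edgeR 4.0.16 (TMM factors, filterByExpr with minimum count 10 and total 15, treatment as the only term, Benjamini-Hochberg over all tested genes). A p-value measures the spread between 7 libraries, which the labels give as separate samples. The SE given with a log2 change was back-calculated from the test. It is the absolute log2 change divided by the square root of the quasi-likelihood F statistic. Shares were compared by exact permutation. Sub-clusters came from Leiden clustering (scanpy 1.11.5, resolution 0.5, 1500 variable genes, 20 components). Scripts were tested on simulated data. Gene coordinates are from GENCODE M21.

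Genes were named by rule: the 10 smallest p-values in each direction where none passed, 5 for the difference of changes, and in each list the member with the highest mean CPM and up to 3 with the smallest p. The 8 rule markers, Rbfox3, Snap25, Gad1, Gad2, Angpt1, Angpt2, Tek, Tie1, App, Thy1, Slc17a6, Slc17a7 and Cacna1g were always eligible. Some genes that the rule names are not reported here. Other genes that describe nuclei or sub-clusters were chosen after their values were seen.

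The batch groups libraries of both treatments and is not the replicate number used below. The replicate block named below is a term for this batch. As a check, deviations from the group means correlated at -0.0333 to 0.189 in the 6 cross-group pairs of the same batch and at -0.159 to 0.0504 in the 6 pairs of different batches. Alternatives were DESeq2 1.42.0, RLE factors, no filter, batch and sex terms, each library left out, doublets left out, other marker thresholds, nuclei low in oligodendrocyte markers and, chosen after seeing the data, 5 sub-clusters left out.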

Additional observations from a re-analysis of the deposited data

Results flagged for a closer look

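In the ANGPT2 group of 4 libraries, the male of batch 2, with 16 thalamic nuclei, lay apart from the other 3 in 12 of the 49 values compared. A value was picked out when the gap to the nearest library exceeded 0.83 of the group's range. Chance does this in about 1 in 20 groups of equally precise values. These libraries are not equally precise and many of the genes were chosen for a small p, so that rate does not hold here. The ratio was 0.836 for the log2 level of Angpt1 (1 UMI in that library) and 0.929 for Pde1a (2 UMIs). For the other 10 genes the library had 0 UMIs, so its value is a floor set by its depth, and the gap says nothing of a level below 17.7 CPM. Their ratios were 0.961 for Angpt2, 0.839 for Syt6, 0.839 for Gm2164, 0.922 for Notum, 0.896 for B2m, 0.936 for Sv2c, 0.939 for Inpp5d, 0.861 for Glra3, 0.862 for Flt1 and 0.958 for Gm12216.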

How the results depend on the processing

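The count of genes that passed stayed at 0 under all 19 alternatives, including the replicate block (0 genes, 287 at an unadjusted p under 0.05, against 246), which changed no call. Without a filter on low counts 1004 of 23794 genes had an unadjusted p under 0.05 and the smallest adjusted p was 0.0884; with a library left out, 207 to 422 genes did, and with DESeq2 39. Control replicates 1, 2 and 3 are the male and female of batch 1 and the male of batch 2; ANGPT2 replicates 1 to 4 are the male and female of batch 1 and then of batch 2. For the difference between thalamic and other neurons the count was 0 to 1 with a library left out, 1 gene each without control replicate 1 and without control replicate 3, and 0 under the other alternatives, the replicate block among them. The share differences changed sign with a library left out: -0.27 percentage points of Gad-low neurons became 1.54 without control replicate 1 and 1.87 without ANGPT2 replicate 3, and -0.25 points of passing nuclei became 0.66, 0.011 and 0.81 without control replicate 1, control replicate 2 and ANGPT2 replicate 3. Over all libraries left out in turn they ran from -2.36 to 1.87 and from -1.43 to 0.81. Permutation within the batch, the replicate block for shares, gave an exact p of 0.833 for both. Of 750 values of single genes under alternatives, 6 changed sign: Angpt2 to -0.035 (DESeq2), -0.087 (without control replicate 1), -0.049 (without ANGPT2 replicate 1) and -0.013 (5 sub-clusters left out), and Npas4 to 0.053 and Dusp1 to 0.047 without control replicate 2. With a library left out, Angpt2 ran from -0.087 to 0.21, Npas4 from -2.58 to 0.053 and Dusp1 from -1.24 to 0.047. List medians were small and less stable: 564 of 665 kept their sign under an alternative, and 27 of 35 lists changed sign under at least 1. Over the alternatives activity-regulated genes ran from -0.79 to 0.07, mitochondrially encoded genes from -0.05 to 0.60, interferon response genes from -0.57 to 0.11 and habenula markers from -1.05 to 0.05. Depth limits most the ANGPT2 male of batch 2, where 0 UMIs allow up to 17.7 CPM.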
